A study of Mus musculus with 12 samples.

Results

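Type I interferon stimulated genes were followed in dendritic cells with a deletion of the β2 integrin subunit CD18. They are a list of 49 genes chosen by name, out of the 41709 genes in the count tables, and each of the 49 names was found once. All 49 passed the filter on low counts in every comparison, so no member was left untested. RNA-seq had been done on bone marrow-derived dendritic cells (BMDCs) of mice, which were differentiated with GM-CSF for 10 days and from which MHCII+ cells were taken by immunomagnetic selection. The 12 libraries form 4 groups of 3, unstimulated CD18fl/fl, unstimulated CD18-delta-CD11c (cKO below), LPS-treated CD18fl/fl and LPS-treated cKO. Both genotypes carried loxP sites around exon 3 of Itgb2, the gene of CD18, on both alleles. The CD18fl/fl controls had no Cre, whereas cKO mice expressed Cre under the promoter of CD11c, which is active in dendritic cells but also in other myeloid cells. LPS was given at 100 ng/mL, for 24 h by the library labels and overnight by the methods of the study. The labels do not tell whether libraries of a group came from separate mice or cultures, so p-values measure the spread between these libraries, which may be technical.

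Type I interferons are secreted when cells sense viruses or bacterial LPS. They bind the receptor formed by IFNAR1 and IFNAR2, whose kinases JAK1 and TYK2 activate ISGF3, a transcription factor that includes STAT2 and IRF9 and binds repeated GAAA motifs upstream of interferon stimulated genes. In dendritic cells LPS acts through TLR4, whose adaptor TRIF leads to transcription of Ifnb1, so that these genes respond to LPS largely by way of secreted interferon. Their products bind or degrade viral RNA, block entry or release of viruses, conjugate the ubiquitin-like protein ISG15, and sense nucleic acids.

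Upstream sequences are shown for the 4 members with the strongest LPS response in CD18fl/fl BMDCs that carry the core of this motif (GAAA, 2 bases of any kind, GAAA). Oasl1 is shown as a member whose window lacks it. Its log2 fold change (5.70) was close to those of Isg15 (5.73) and Ifit1 (5.71) and below those of Ifi205 (6.40) and Rsad2 (6.22). Each sequence is the 250 bases before the transcription start in RefSeq (GRCm38.p6), 5′ to 3′ on the strand of the gene, with matches on either strand in capitals. Ifi205 lies at chr1:174031756-174032005, minus strand, and Rsad2 at chr12:26456453-26456702, minus strand. The windows of Isg15 and Ifit1 are chr4:156200819-156201068, minus strand, and chr19:34640639-34640888, plus strand, and that of Oasl1 is chr5:114922990-114923239, plus strand.
Ifi205: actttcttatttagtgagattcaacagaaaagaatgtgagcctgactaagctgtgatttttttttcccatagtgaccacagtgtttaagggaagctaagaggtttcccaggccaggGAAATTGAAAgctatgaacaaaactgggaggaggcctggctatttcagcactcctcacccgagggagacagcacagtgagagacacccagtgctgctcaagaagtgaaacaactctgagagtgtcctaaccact
Rsad2: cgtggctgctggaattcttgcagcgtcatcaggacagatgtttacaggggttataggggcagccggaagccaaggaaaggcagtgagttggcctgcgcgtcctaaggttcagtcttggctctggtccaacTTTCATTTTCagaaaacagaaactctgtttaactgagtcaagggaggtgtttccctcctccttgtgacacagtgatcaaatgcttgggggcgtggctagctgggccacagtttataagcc
Isg15: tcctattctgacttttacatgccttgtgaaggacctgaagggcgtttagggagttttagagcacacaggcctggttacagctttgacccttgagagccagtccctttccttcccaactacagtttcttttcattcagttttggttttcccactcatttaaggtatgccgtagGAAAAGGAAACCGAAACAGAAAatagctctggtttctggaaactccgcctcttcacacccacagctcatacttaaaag
Ifit1: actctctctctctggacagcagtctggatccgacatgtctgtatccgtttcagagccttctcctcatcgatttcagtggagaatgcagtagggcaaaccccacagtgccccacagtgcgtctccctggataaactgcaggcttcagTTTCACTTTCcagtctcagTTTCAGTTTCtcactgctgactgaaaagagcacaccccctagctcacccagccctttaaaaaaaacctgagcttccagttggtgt
Oasl1: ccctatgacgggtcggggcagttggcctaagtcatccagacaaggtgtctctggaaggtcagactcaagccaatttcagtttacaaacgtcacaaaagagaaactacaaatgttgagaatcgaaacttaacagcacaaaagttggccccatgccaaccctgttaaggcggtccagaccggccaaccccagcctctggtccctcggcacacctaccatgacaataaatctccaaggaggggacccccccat
Isg15 holds 3 matches, each overlapping the next, Ifit1 holds 2 on the opposite strand, and Ifi205 and Rsad2 hold 1 each. RefSeq promoters were matched to 39 of the 49 members by symbol, and Dhx58, Oas2, Parp14, Ifi204, Mx1, Rtp4, Mx2, Zbp1, Parp9 and Usp18 had no entry. The motif occurred in 15 of these 39 members (38.5%), and in 936 of the 27025 genes with a promoter (3.46%). By promoter, the share was 2.977% of all 32851 windows of this length. The median log2 fold change after LPS in CD18fl/fl BMDCs was 2.79 for the 15 members with a match and 1.80 for the 24 without. A match describes the letters of the window and is not a measured binding site.

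The libraries held 29689149 to 34037178 total gene reads. Levels are given as CPM, reads scaled by library sizes after TMM normalization over the 12 libraries, and 3 reads, taken as the floor, were worth 0.0881 to 0.101 CPM. The floor covers counting error only, as PCR copies were not marked by molecular identifiers. Itgb2 amounted to 382, 420.1 and 379 CPM in replicates 1, 2 and 3 of unstimulated CD18fl/fl and to 120.4, 163 and 189 CPM in unstimulated cKO BMDCs. After LPS it was at 167, 171 and 266 CPM in CD18fl/fl and 114, 89.7 and 119 CPM in cKO BMDCs, so each cKO library lay below each control library of its state. Reads on the gene outside exon 3 are counted too, so these values do not read the deleted exon directly. Of the markers of dendritic cells, H2-Ab1 ranged from 4237 to 13164 CPM and Itgax, the gene of CD11c, from 30.7 to 680.1 CPM, with the highest level of Itgax in each group in replicate 3. The summed level of 10 dendritic cell markers was instead lowest in replicate 3 of each group, at 13290 CPM against 19860 and 20000 CPM in unstimulated CD18fl/fl. H2-Ab1, H2-Aa, Ccr7, Flt3 and Batf3 were each lowest there as well. The other markers were mixed. Cd74 was highest in replicate 3 of both cKO groups (4444 and 3619 CPM). Ciita (68.9 CPM) and Zbtb46 (33.3 CPM) were highest in replicate 3 of LPS-treated cKO. Cd209a was highest in replicate 3 of every group but unstimulated CD18fl/fl. Siglech, which defines plasmacytoid dendritic cells, stayed at or below 0.249 CPM.

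Replicate 3 stood apart in the interferon stimulated genes. In unstimulated CD18fl/fl BMDCs, 46 of 49 members had their lowest level in replicate 3, against 40.1% of all 13752 genes in the fit of the 12 libraries, and the median difference of replicate 3 from the mean of the other replicates was -1.41 on the log2 scale (all genes 0.013). In unstimulated cKO BMDCs, the same held for 41 members (all genes 38.3%), with a median of -1.13. After LPS, replicate 3 was lowest for 27 members and highest for 16 in CD18fl/fl BMDCs, and for 20 and 16 in cKO BMDCs. Markers of B cells, neutrophils and macrophages were lower in unstimulated replicate 3 as well. The summed level of 6 B cell markers in unstimulated replicates 1, 2 and 3 was 31.2, 95.8 and 1.02 CPM in CD18fl/fl and 111, 139 and 0.665 CPM in cKO BMDCs. For 8 neutrophil markers, these sums were 1314, 111 and 8.82 CPM in CD18fl/fl and 193, 156 and 10.6 CPM in cKO BMDCs. For 9 macrophage and monocyte markers, they were 32200, 33160 and 7870 CPM in CD18fl/fl and 26020, 62990 and 15260 CPM in cKO BMDCs. The sum of 7 markers of plasmacytoid dendritic cells was highest in replicate 3 in unstimulated CD18fl/fl (18, 35.5 and 42.0 CPM) and both LPS-treated groups. It was not in unstimulated cKO BMDCs (33.7, 47.9 and 27.75 CPM). In unstimulated CD18fl/fl the high sum rested on Cox6a2, at 0.444, 0.226 and 32.8 CPM. Tcf4 (9.40, 12.7 and 8.31 CPM), Ly6d (5.38, 19.6 and 0 CPM) and Pacsin1 (1.75, 2.86 and 0.588 CPM) were lowest in replicate 3 of this group. The sum of the 7 markers ranged from 14.2 to 47.9 CPM over the 12 libraries, and that of 6 T and NK cell markers from 0.966 to 27.5 CPM. The T and NK cell sum was also lowest in unstimulated replicate 3, at 20.75, 26.4 and 4.57 CPM in CD18fl/fl. In unstimulated cKO BMDCs it was 27.5, 14.9 and 2.17 CPM. The part of other cells in the levels of the members was not tested, and in bulk libraries fewer cells of a type cannot be told apart from less RNA per cell.

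**Figure D1:**
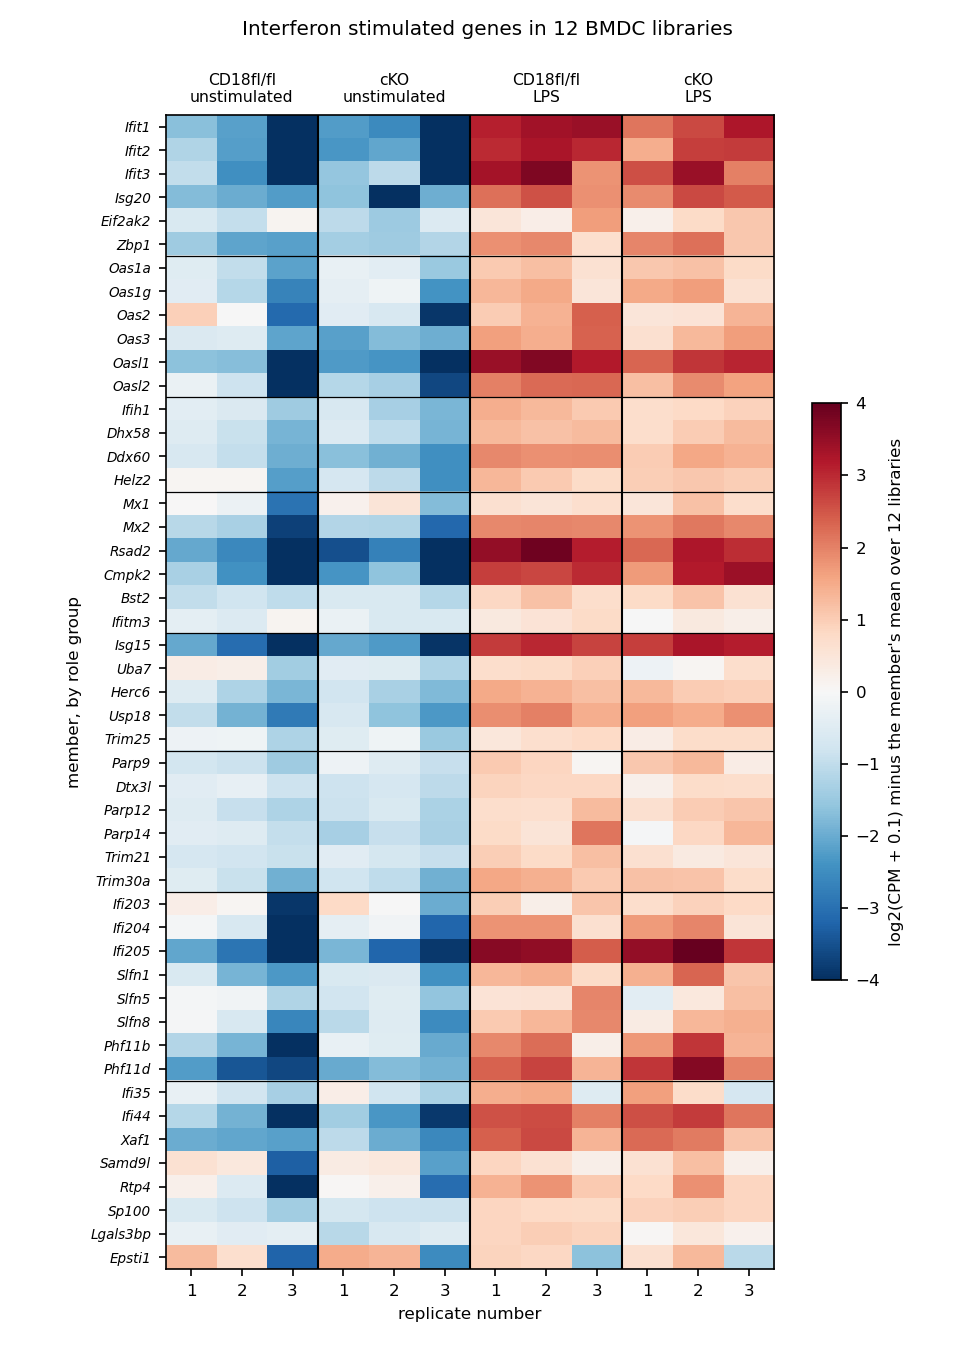
Level of each of the 49 members in each of the 12 libraries, as log2(CPM + 0.1) minus the member's mean over the 12 libraries, with members ordered by role and colours capped at 4 above or below that mean. Unstimulated libraries are below the mean for most members, those of replicate 3 most of all. The LPS-treated libraries of both genotypes are above it for most members, with exceptions such as replicate 3 for Epsti1 and Ifi35.

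Before stimulation, most members were present at low levels. In TPM, which accounts for gene length, the median member had 14.3 in unstimulated CD18fl/fl and 9.02 in unstimulated cKO BMDCs (mean of 3 libraries per member). In CD18fl/fl, the highest levels were those of Ifitm3, which stops viruses in endosomes (984 TPM), the virus tether Bst2 (813 TPM), Epsti1 (601 TPM) and the secreted glycoprotein Lgals3bp (132 TPM). The GTPase gene Mx2 was lowest, at 0.928 TPM. Levels over 100 TPM were reached by 4 members in CD18fl/fl and 3 in cKO, and 19 and 27 members were under 10 TPM. After LPS, the median was 78.0 TPM in CD18fl/fl and 51.9 TPM in cKO BMDCs, 20 and 16 members exceeded 100 TPM, and 2 and 5 remained under 10 TPM. Bst2 (2356 TPM), Ifitm3 (1447 TPM), Isg15 (1336 TPM) and Rsad2 (483 TPM) were the highest in LPS-treated CD18fl/fl BMDCs, where Oas2 was lowest at 4.11 TPM. In LPS-treated cKO BMDCs, Bst2 (1696 TPM), Isg15 (1170 TPM) and Ifitm3 (835 TPM) led, and Oas2 was again lowest at 1.63 TPM. The reads of the 49 members made up 0.412%, 0.341% and 0.178% of replicates 1, 2 and 3 of unstimulated CD18fl/fl and 0.325%, 0.305% and 0.143% of unstimulated cKO BMDCs. With LPS, these shares were 1.07%, 1.08% and 1.03% in CD18fl/fl and 0.672%, 0.887% and 0.798% in cKO BMDCs. As shares of raw reads, the LPS-treated groups overlapped neither with each other nor with the unstimulated ones. After TMM normalization, the LPS-treated sums were 11053, 12259.5 and 8865 CPM in CD18fl/fl and 8491, 11885 and 8505 CPM in cKO BMDCs, and these genotypes overlapped.

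To examine the response to LPS, treated and unstimulated BMDCs of the same genotype were compared. In CD18fl/fl BMDCs, 28 of the 49 members rose and 0 fell (edgeR, Benjamini-Hochberg adjusted p under 0.05), where 2.06% of the 12744 genes tested were called higher and 1.83% lower. Log2 fold changes of single genes are given with their standard error (SE). The median of the members was 2.25, and that of all genes was -0.015. In cKO BMDCs, 31 of 49 rose and 0 fell, where 2.23% of 12687 genes were called higher and 1.76% lower, with a median of 2.14 (all genes -0.014). Scaling to library size alone set the median of all genes to -0.32 in CD18fl/fl and -0.23 in cKO BMDCs, and that of the members to 1.98 and 1.94. Called in both genotypes were 26 members, Parp9 and Lgals3bp were called in CD18fl/fl alone, Oas1a, Oasl2, Helz2, Parp14 and Phf11b in cKO alone, and 16 in neither. The 3 LPS-treated libraries lay above the 3 unstimulated ones for 45 members in CD18fl/fl (13.6% of all genes) and for 44 in cKO BMDCs (14.8%).

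Same-numbered libraries deviated together from their group means, so a fit with the replicate number as a block was made as well. Replicates 1 and 2 also deviated together across numbers (mean r between 0.202 and 0.357), and opposite to replicate 3. The 3 deviations of a gene in a group sum to 0, so this opposite sign follows from the positive same-numbered r of replicate 3. It also raises r among replicates 1 and 2, whose same-numbered r is thus not separate evidence of pairing. For the LPS response in CD18fl/fl, the mean r of replicates 1 and 2 across numbers (0.306) exceeded the same-numbered r of replicate 2 (0.261). The numbers 1 and 2 are thus weakly told apart, and block fits and pair ratios depend on them. With the block, 36 members rose in CD18fl/fl (6.33% of all genes were called higher and 6.43% lower) and 40 in cKO BMDCs (10.2% and 9.93%), and again 0 fell. Of these, 36 were called in both genotypes, Helz2, Trim25, Parp14 and Slfn8 in cKO alone, and 9 (Oas2, Mx1, Ifitm3, Uba7, Ifi203, Slfn5, Samd9l, Rtp4 and Epsti1) in neither. These counts depended on single libraries. Without replicate 1 or 2 of either state, the count in CD18fl/fl was 0 each time by edgeR, with 39 to 42 members higher at an unadjusted p under 0.05. In these fits 0 of all genes tested were called in either direction. The members called were 28 without unstimulated and 35 without LPS-treated replicate 3, where 506 and 3268 of all genes were called. Counts at an unadjusted p are given here and below without the share of all genes, which was not counted. DESeq2 called 40 members higher on all 6 libraries (6.91% of all genes), and 46 with the block (11.6%). In cKO BMDCs, the count was 0 without unstimulated replicate 1 and without LPS-treated replicate 2, 1 without unstimulated replicate 2 and 5 without LPS-treated replicate 1, with 40 to 42 members higher at an unadjusted p under 0.05 in these fits. Of all genes tested, 0, 2, 4 and 26 were called in these fits, in the same order. In the same genotype, 27 members were called without unstimulated and 32 without LPS-treated replicate 3, where 357 and 1033 of all genes were called. DESeq2 called 40 members (5.44% of all genes), and 45 with the block (12.4%).

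**Figure D2:**
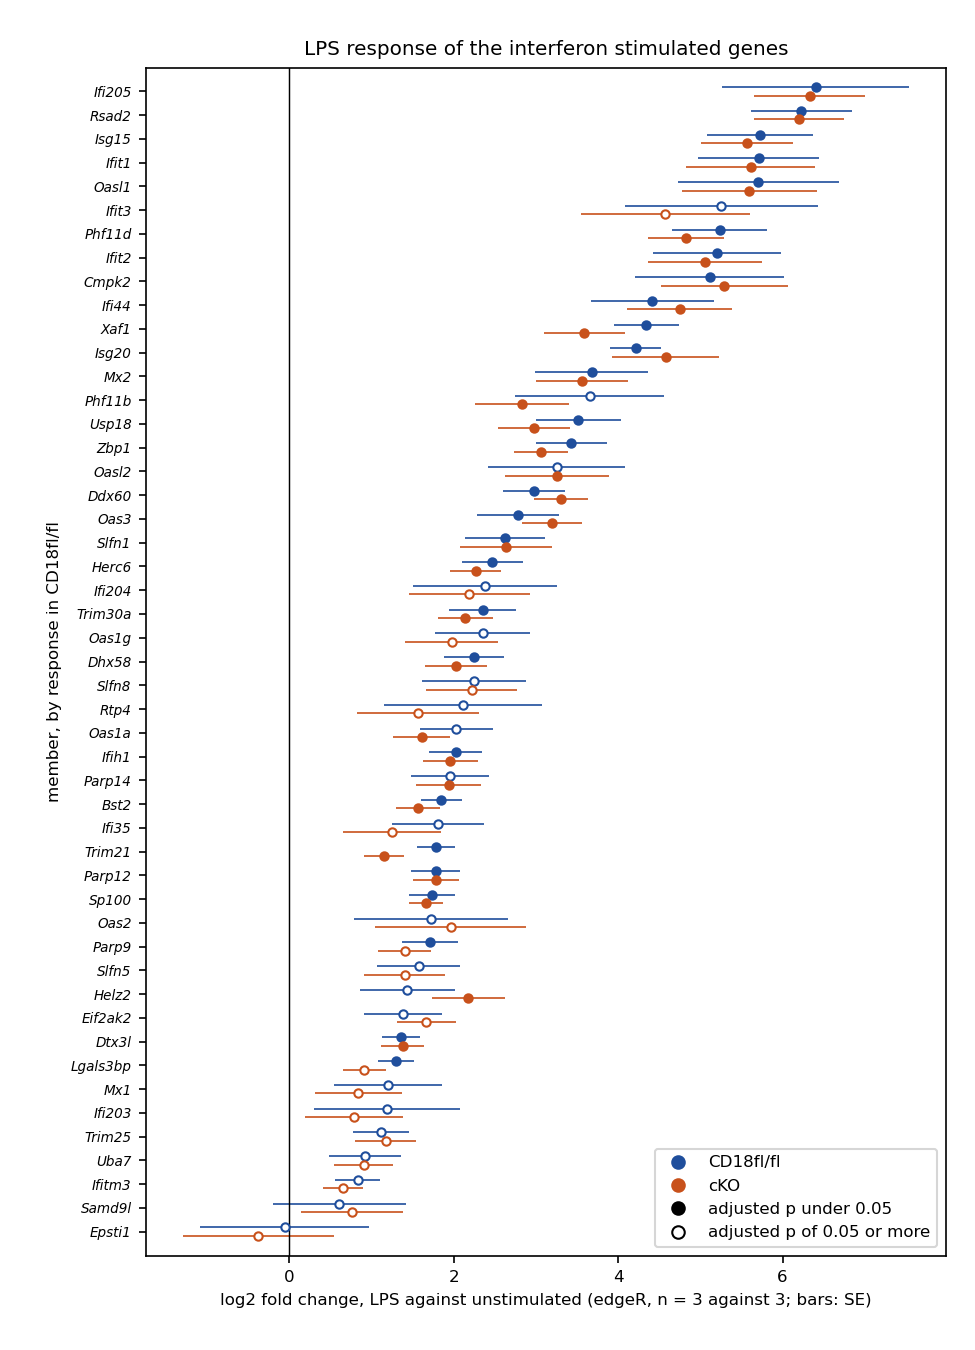
Log2 fold change of each member after LPS against unstimulated BMDCs in CD18fl/fl and cKO, with standard errors (SE) from edgeR (3 against 3 libraries). Filled points have an adjusted p under 0.05. Values run from -0.053 (Epsti1) to 6.40 (Ifi205) in CD18fl/fl and the bars of both genotypes overlap for most members.

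Among 6 RNA-binding effectors, 4 rose in each genotype (Ifit1, Ifit2, Isg20 and Zbp1), and all 6 with the block. Ifit1 (ENSMUSG00000034459, chromosome 19, 34618271 to 34627409) encodes a protein that binds foreign RNA by its cap. It was at 7.79, 5.54 and 1.12 CPM in replicates 1, 2 and 3 of unstimulated CD18fl/fl and at 5.34, 4.27 and 0.723 CPM in unstimulated cKO BMDCs. With LPS it reached 218, 259 and 279 CPM in CD18fl/fl and 112, 159 and 241 CPM in cKO BMDCs, so the lowest treated library exceeded the highest unstimulated library many times over. Its log2 fold change was 5.71 (SE 0.74, adjusted p = 0.0162) in CD18fl/fl and 5.61 (SE 0.79, adjusted p = 0.021) in cKO BMDCs. Its relative Ifit2 changed by 5.20 (SE 0.78) and 5.06 (SE 0.69). Ifit3, another member of this family, had 493, 641 and 170.0 CPM in LPS-treated CD18fl/fl and 292, 538 and 195 CPM in LPS-treated cKO BMDCs, from 24.4, 8.80 and 0.935 and 16.7, 23.5 and 1.07 CPM. Replicate 3 was the lowest library in each of the 4 groups. Ifit3 was called only with the block, in which the log2 fold changes were 5.97 (SE 0.69, adjusted p = 0.00729) and 5.15 (SE 0.69, adjusted p = 0.00449). Isg20, an exonuclease that degrades RNA, was at 5.91, 4.91 and 4.14 CPM before and 91.8, 115 and 70.1 CPM after LPS in CD18fl/fl BMDCs. Its log2 fold change there, 4.21 (SE 0.31, adjusted p = 0.00989), had the lowest adjusted p of the members in this comparison. Zbp1, a sensor of nucleic acids in the Z form, changed by 3.43 and 3.06. Eif2ak2, the kinase PKR that halts translation on double-stranded RNA, rose least in this group and was called only with the block (1.31 (SE 0.22, adjusted p = 0.0186) in CD18fl/fl).

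Of 6 oligoadenylate synthetase genes, Oas3 and Oasl1 rose in both genotypes and Oas1a and Oasl2 in cKO BMDCs alone. With the block 5 of 6 rose in each. The enzymes make oligoadenylates that activate RNase L, while Oasl1 is known as an inhibitor of Irf7 translation. Oasl1 (ENSMUSG00000041827, chromosome 5, 115061299 to 115075974) was at 8.21, 7.82 and 0.534 CPM in unstimulated CD18fl/fl and 5.27, 4.93 and 0.578 CPM in unstimulated cKO BMDCs. After LPS it was at 287, 341 and 234 and 129, 189 and 216 CPM, with a log2 fold change of 5.70 (SE 0.98, adjusted p = 0.0325) in CD18fl/fl and 5.60 (SE 0.82, adjusted p = 0.0217) in cKO BMDCs. Every treated library thus lay far above every unstimulated one. The values for Oas3 were 2.79 and 3.19, and for Oasl2 3.25 (adjusted p = 0.0803) and 3.26 (adjusted p = 0.0415). Oas2 had between 0.116 and 6.07 CPM in unstimulated and between 4.33 and 16.5 CPM in LPS-treated libraries. It was not called in either genotype or fit, with log2 fold changes of 1.73 (SE 0.94) and 1.96 (SE 0.92).

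All 4 helicases rose in cKO BMDCs, and all but Helz2 in CD18fl/fl. Ifih1 encodes the RNA sensor MDA5 and Dhx58 its cofactor LGP2. Their log2 fold changes were 2.02 and 2.25 in CD18fl/fl, and 1.96 and 2.03 in cKO BMDCs. Ddx60, a helicase linked to antiviral RNA sensing, went to 53.8, 50.6 and 51.0 CPM in CD18fl/fl and 28.3, 41.5 and 36.7 CPM in cKO BMDCs, from 9.01, 7.17 and 3.58 and 4.34, 3.63 and 2.46 CPM. Its response was 2.98 (SE 0.37, adjusted p = 0.0162) in CD18fl/fl and 3.31 (SE 0.33, adjusted p = 0.0115) in cKO BMDCs. Helz2, a large helicase known as a transcriptional coactivator, was at 148, 147 and 30.3 CPM in unstimulated CD18fl/fl and at 351, 290.3 and 239 CPM in LPS-treated CD18fl/fl BMDCs. The unstimulated libraries did not overlap with the treated ones, but replicate 3 was far below replicates 1 and 2, and the log2 fold change was 1.44 (SE 0.57, adjusted p = 0.191).

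In the group of Mx GTPases, Rsad2 and membrane proteins, Mx2, Rsad2, Cmpk2 and Bst2 rose in both genotypes, without and with the block. Rsad2 (ENSMUSG00000020641, chromosome 12, 26492745 to 26506451) encodes viperin, an enzyme that makes a chain-terminating nucleotide. In unstimulated BMDCs it was at 23.5, 16.5 and 6.09 CPM in CD18fl/fl and 8.54, 14.9 and 5.12 CPM in cKO. After LPS it reached 1122, 1450.0 and 867 CPM in CD18fl/fl and 486, 923 and 756 CPM in cKO BMDCs, and no treated library came near the unstimulated ones. This gave a log2 fold change of 6.22 (SE 0.61, adjusted p = 0.0127) in CD18fl/fl and 6.20 (SE 0.54, adjusted p = 0.0115) in cKO BMDCs. Cmpk2, its neighbour in the genome and a mitochondrial nucleotide kinase, changed by 5.11 and 5.29. Bst2 (ENSMUSG00000046718, chromosome 8, 71986899 to 71990100) encodes tetherin, which holds budding viruses on the cell surface. It started high, at 278, 316 and 270.3 CPM in CD18fl/fl and 363, 361 and 249 CPM in cKO BMDCs, and reached 971, 1236 and 902 and 947, 1204 and 835 CPM. The lowest treated library was above the highest unstimulated one in both genotypes, with log2 fold changes of 1.85 and 1.57. Mx1 is annotated in the files as a polymorphic pseudogene, as many laboratory strains carry a disrupted copy, and Mx2 has the same annotation. Mx1 went from 56.8, 48.3 and 7.24 to 87.2, 81.3 and 89.6 CPM in CD18fl/fl BMDCs and was not called in either genotype or fit (log2 fold change 1.20, standard error 0.66). Ifitm3 was not called either, with 0.84 (adjusted p = 0.132) and 0.66 (adjusted p = 0.172), and 0.0508 and 0.0709 as adjusted p with the block.

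In the ISG15 system, the modifier Isg15, the ligase Herc6 and the protease Usp18 rose in both genotypes. The activating enzyme Uba7 and the ligase Trim25 were not called without the block, and with it Trim25 was called in cKO alone. Isg15 (ENSMUSG00000035692, chromosome 4, 156283912 to 156285253) was at 17.3, 8.60 and 3.53 CPM in unstimulated CD18fl/fl and at 17.5, 14.8 and 4.71 CPM in unstimulated cKO BMDCs. With LPS these values were 500.2, 587 and 468 and 486, 688 and 631 CPM. The treated groups overlapped with each other and not with the unstimulated ones, in which replicate 3 was lowest in both genotypes. Isg15 thus had a log2 fold change of 5.73 (SE 0.65, adjusted p = 0.0138) in CD18fl/fl and 5.57 (SE 0.56, adjusted p = 0.0115) in cKO BMDCs. Usp18, which removes ISG15 from proteins and dampens signalling at the interferon receptor, changed by 3.51 and 2.98. Herc6 changed by 2.47 and 2.27. For Uba7, the values were 0.92 and 0.91 with SE of 0.44 and 0.36.

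The PARP, DTX3L and TRIM genes ranged from 1.37 to 2.35 in CD18fl/fl BMDCs. Here 5 of 6 rose in each genotype, with medians of 1.78 and 1.60. Dtx3l, a ubiquitin ligase that works together with Parp9, changed by 1.37 and 1.38, and Parp9 by 1.71 and 1.40 (adjusted p = 0.0564). Parp12 and Parp14 encode ADP-ribosyltransferases. Parp14 was at 90.3, 75.3 and 233 CPM in LPS-treated CD18fl/fl and 51.2, 94.4 and 132 CPM in LPS-treated cKO BMDCs, with the highest level in replicate 3, as for Eif2ak2 and Slfn5. Its log2 fold change was 1.96 (adjusted p = 0.0699) and 1.94 (adjusted p = 0.045). Trim21 is a cytosolic receptor for antibodies, and Trim30a a mouse gene known to restrain NF-κB signalling. They changed by 1.79 and 2.35 in CD18fl/fl, and by 1.15 and 2.14 in cKO BMDCs.

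The PYHIN, Schlafen and PHF11 families spanned a wide range, from 1.19 (Ifi203) to 6.40 (Ifi205) in CD18fl/fl. In CD18fl/fl 3 of 8 rose (Ifi205, Slfn1 and Phf11d), and Phf11b in addition in cKO BMDCs. Ifi205 (ENSMUSG00000054203, chromosome 1, 173839564 to 173859376), of the DNA-binding PYHIN family, had the largest log2 fold change of all members in both genotypes on all 6 libraries. Without unstimulated CD18fl/fl replicate 3 it was 5.83 in CD18fl/fl, next to 5.84 for Rsad2. It had 2.02, 1.08 and 0.0267 CPM in unstimulated CD18fl/fl, where replicate 3 is below the floor, and 2.42, 0.900 and 0.520 CPM in unstimulated cKO BMDCs. After LPS it was at 112, 104 and 48.0 and 102, 151 and 65.1 CPM. The response was 6.40 (SE 1.14, adjusted p = 0.0358) and 6.33 (SE 0.68, adjusted p = 0.0124). Of its reads, 67.9% were unique to the gene, since its relatives are close in sequence, so its level is less certain than that of members with unique reads. Phf11d (ENSMUSG00000068245, chromosome 14, 59584856 to 59602919) and Phf11b (ENSMUSG00000091649, chromosome 14, 59558413 to 59578800) are neighbouring genes of PHD finger proteins. Phf11d was at 6.27, 2.68 and 2.32 CPM in unstimulated CD18fl/fl and at 153, 193 and 77.4 CPM in LPS-treated CD18fl/fl BMDCs. In cKO BMDCs, it went from 7.37, 8.83 and 7.92 to 216, 383 and 119 CPM. For Phf11d, the log2 fold change was 5.23 (SE 0.58, adjusted p = 0.0138) in CD18fl/fl and 4.83 (SE 0.46, adjusted p = 0.0115) in cKO BMDCs, and that of Phf11b was 3.66 (adjusted p = 0.0743) and 2.83 (adjusted p = 0.045). Slfn1, of the growth-regulating Schlafen family, changed by 2.62 and 2.64. Ifi204 was called with the block alone (2.95 (SE 0.57, adjusted p = 0.0266) in CD18fl/fl, 2.55 (SE 0.37, adjusted p = 0.0056) in cKO), and Ifi203 and Slfn5 in neither fit.

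Among the other 8 members, Ifi44, Xaf1 and Sp100 rose in both genotypes. Xaf1, which binds the inhibitor of apoptosis XIAP, was at 6.05, 5.67 and 5.40 CPM in unstimulated CD18fl/fl and 129.6, 154 and 62.7 CPM in LPS-treated CD18fl/fl BMDCs. It rose by 4.34 (SE 0.39, adjusted p = 0.0127) on the log2 scale, and by 3.59 (SE 0.49, adjusted p = 0.0197) in cKO BMDCs. Sp100, a component of nuclear bodies, changed by 1.74 and 1.66, and Ifi44 by 4.42 and 4.75. Epsti1 (ENSMUSG00000022014, chromosome 14, 78141679 to 78240097) was the member nearest to 0. In unstimulated BMDCs it was at 1109.6, 732 and 50.3 CPM in CD18fl/fl and at 1282, 1169 and 81.0 CPM in cKO. After LPS, it was at 853, 824 and 148 and 711, 1117 and 217 CPM. Replicate 3 thus lay far below the others in every group, and the groups overlapped. It changed by -0.053 (SE 1.03, adjusted p = 0.979) in CD18fl/fl and -0.37 (SE 0.92, adjusted p = 0.863) in cKO BMDCs, and 0.44 (SE 0.40) and 0.10 (SE 0.42) with the block. The log2 ratios of the same-numbered pairs 1, 2 and 3 were -0.38, 0.17 and 1.56 in CD18fl/fl and -0.85, -0.066 and 1.42 in cKO BMDCs.

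**Figure D3:**
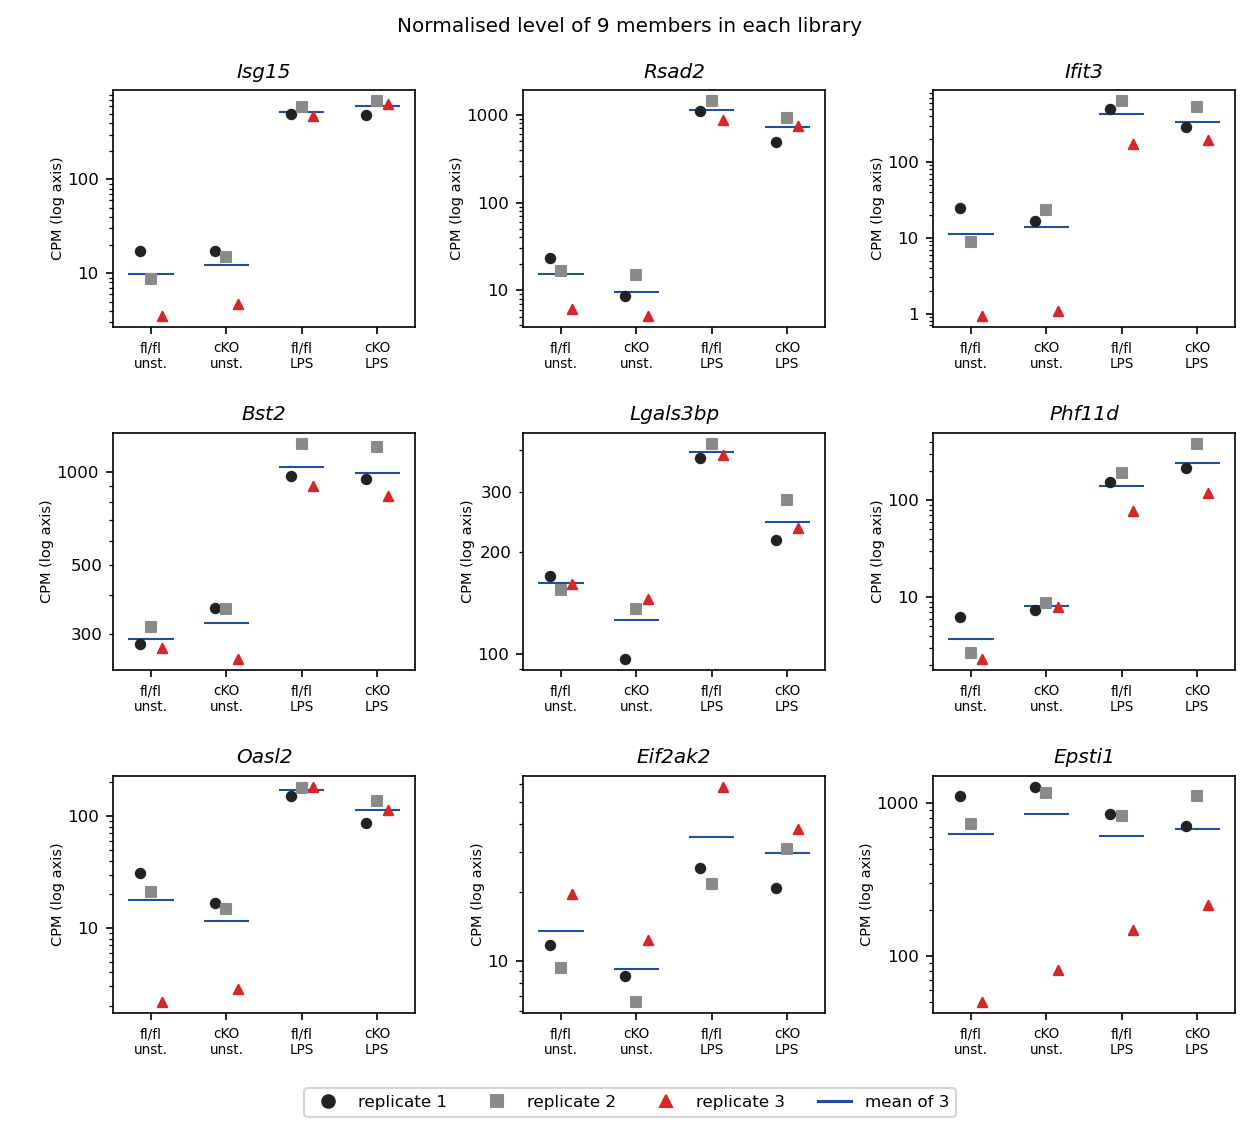
CPM of 9 members in each library on a log axis, by group, with replicate numbers as symbols and the mean of 3 libraries as a line. Isg15, Rsad2 and Ifit3 are higher in every LPS-treated library, Epsti1 overlaps between unstimulated and treated libraries, and replicate 3 (triangle) is low in most unstimulated groups.

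The size of the response differed between same-numbered pairs. In CD18fl/fl BMDCs, the median log2 ratio of LPS-treated to unstimulated libraries over the 49 members was 1.83, 2.28 and 3.48 in pairs 1, 2 and 3, and 39 members had their largest ratio in pair 3. In cKO BMDCs, these medians were 1.65, 2.10 and 3.14, with 38 members largest in pair 3. The largest ratio was in pair 3 in both genotypes for 36 members, and the order of the 3 pairs was the same for 32. In pair 3 the unstimulated libraries were the lower ones, as given above, while the treated libraries differed less between replicates. The median SD of log2 levels between replicates was 0.895 in unstimulated and 0.324 in LPS-treated CD18fl/fl, and 0.778 and 0.442 in cKO BMDCs. When replicate 3 was left out of both states, 45 members rose in CD18fl/fl and 38 in cKO BMDCs, with medians of 2.00 and 1.76. Of all genes, 23.2% and 7.93% were then called higher.

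Genes that act upstream of the members were examined from a list of 32, of which 24 were tested in CD18fl/fl and 25 in cKO BMDCs. After LPS, 2 rose in CD18fl/fl (Stat2 and Irf7) and 3 in cKO (Ifnb1, Stat2 and Irf7), and none fell. Of all genes, 2.06% and 2.23% were called higher. Ifnb1 had too few reads to be tested in CD18fl/fl. With the block 8 and 14 rose, where 6.33% and 10.2% of all genes were called higher. Ifnb1, the gene of interferon-β, had 0.139, 0 and 0 CPM in unstimulated CD18fl/fl and 0 CPM in all unstimulated cKO libraries. With LPS it was at 4.46, 3.83 and 0.203 CPM in CD18fl/fl and 1.46, 8.75 and 2.30 CPM in cKO BMDCs. Ifna2, Ifna4 and Ifna5 had 0 reads in every library, which allows up to 3 reads in each. Irf7, the factor that amplifies interferon production, went from 20.1, 14.4 and 2.97 to 683, 711 and 479 CPM in CD18fl/fl and from 8.47, 8.70 and 2.98 to 500.0, 509 and 391 CPM in cKO BMDCs. The log2 fold change of Irf7 was 5.64 (SE 0.75, adjusted p = 0.0162) and 6.07 (SE 0.50, adjusted p = 0.00915). For Stat2 it was 2.96 (SE 0.29, adjusted p = 0.0127) and 3.14 (SE 0.37, adjusted p = 0.0131).

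In unstimulated BMDCs, cKO was then compared with CD18fl/fl, and log2 fold changes give cKO relative to CD18fl/fl. By edgeR, 0 of 49 members passed the threshold in either direction, as did 0% of the 12876 genes tested. At an unadjusted p under 0.05, where the share of all genes was not counted, 1 member was higher (Phf11d) and 0 were lower. DESeq2 called 0 members and 6.03% of all genes. By sign, 23 members were higher and 26 lower, with a median of -0.042 (all genes -0.048). With the replicate block, 6 members rose and 1 fell, where 12.1% of all genes were called higher and 8.16% lower. The members called higher were Phf11b, Phf11d, Mx1, Epsti1, Oas1a and Parp9, and Helz2 was the one called lower.

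For Phf11d, the unstimulated cKO libraries had 7.37, 8.83 and 7.92 CPM against 6.27, 2.68 and 2.32 CPM in CD18fl/fl, and all 3 cKO libraries were above all 3 control libraries on this scale. With library size scaling or in TPM the genotypes overlapped and pair 1 was reversed (3.68 TPM in cKO and 4.82 TPM in CD18fl/fl). Its log2 fold change was 1.15 (SE 0.45, adjusted p = 0.269), and 1.30 (SE 0.38, adjusted p = 0.0473) with the block. Phf11b was at 64.3, 56.1 and 19.3 CPM in cKO and 35.2, 21.7 and 3.39 CPM in CD18fl/fl BMDCs. The cKO library was higher in each pair, although replicate 3 of cKO was below replicates 1 and 2 of CD18fl/fl. The log2 fold change of Phf11b was 1.25 (SE 0.81, adjusted p = 0.478) and 1.60 (SE 0.30, adjusted p = 0.0118) with the block, and its log2 ratios in pairs 1, 2 and 3 were 0.87, 1.37 and 2.47. Mx1 (64.2, 80.1 and 17.1 CPM in cKO), Oas1a (69.5, 63.4 and 30.2 CPM) and Parp9 (94.6, 77.2 and 58.0 CPM) were also higher in cKO in each pair after TMM normalization, but each was higher in 2 of 3 pairs with library size scaling, and in TPM Oas1a was higher in 1 pair. With the block these genes had log2 fold changes of 0.76 (adjusted p = 0.0438), 0.54 (adjusted p = 0.0481) and 0.52 (adjusted p = 0.0357). Oas1a was chosen here after its values were seen. Epsti1 had 0.58 (SE 0.16, adjusted p = 0.042) with the block. Helz2 was at 88.6, 68.4 and 25.3 CPM in cKO and 148, 147 and 30.3 CPM in CD18fl/fl BMDCs, lower in each pair, with -0.79 (SE 0.68, adjusted p = 0.593) and -0.65 (SE 0.19, adjusted p = 0.0464) with the block.

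Besides Phf11d, the unstimulated genotypes did not overlap after TMM normalization for Zbp1, higher in cKO at 22.7, 21.8 and 26.0 against 21.8, 13.3 and 12.7 CPM, and for Lgals3bp, lower at 96.5, 136 and 145 against 170.0, 154 and 160.1 CPM. Their log2 fold changes were 0.61 (SE 0.27, adjusted p = 0.318) and -0.30 (SE 0.22, adjusted p = 0.518), and adding the block gave an adjusted p of 0.0693 and 0.227. Members without overlap were thus 2 higher and 1 lower, next to 11.7% and 13.1% of all genes. On the other scales Zbp1 overlapped and Lgals3bp did not, and the members without overlap were 0 higher and 6 lower with library size scaling and 0 higher and 10 lower in TPM. In all 3 same-numbered pairs, 10 members were higher and 12 lower (24% and 33.9% of all genes). The median log2 ratio of the members was -0.24, 0.008 and 0.124 in pairs 1, 2 and 3. Of the upstream genes, 0 were called without the block. With it, 0 were called higher and 5 lower (12.1% and 8.16% of all genes), among them Ifnar2 (-0.48) and Irf8 (-0.50).

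The scaling of the libraries bears on these directions. Scaling to library size alone moved the median of all genes to -0.44, and that of the members to -0.45. With the block and this scaling, Phf11b was the one member called higher and 15 were called lower (5.44% and 30.1% of all genes). When a gene length offset was combined with the block, Phf11b, Parp9 and Mx1 were called higher and Ifitm3 lower (6.79% and 3.7% of all genes), and Phf11d had an adjusted p of 0.0563. Restricted to replicates 1 and 2, Phf11b was called higher, and Helz2, Oas3 and Uba7 lower (7.91% and 2.67% of all genes). Phf11b was thus called higher in each of these 3 fits, as it was with the block alone. DESeq2 with the block called 8 members higher and 1 lower (15.5% and 10.9% of all genes).

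In LPS-treated BMDCs, 0 of 49 members passed the threshold in either direction between genotypes by edgeR, as did 0% of 12441 genes. At an unadjusted p under 0.05, 0 members were higher and 4 lower (Lgals3bp, Ddx60, Oasl1 and Oasl2), and DESeq2 called 0 members and 1.3% of all genes. The share of all genes at this unadjusted p was not counted, so these 4 are not shown to stand out. By sign, 17 members were higher and 32 lower, with a median of -0.22 (all genes -0.11). With the block, 1 rose (Phf11d) and 2 fell (Lgals3bp and Oasl2), where 6.98% of all genes were called higher and 3.16% lower. After TMM normalization, the genotypes did not overlap for 8 members, all lower in cKO BMDCs (Ifit2, Oasl1, Oasl2, Ifih1, Ddx60, Dtx3l, Trim21 and Lgals3bp), next to 8.09% of all genes lower and 9.51% higher. These 8 did not overlap on the other scales either, where 14 members were lower without overlap with library size scaling and 21 in TPM, and 0 higher. In all 3 pairs, 19 members were lower and 7 higher in cKO (26.1% and 23.1% of all genes).

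Lgals3bp (ENSMUSG00000033880, chromosome 11, 118283577 to 118292918), whose product binds galectins, had 217, 284 and 235 CPM in LPS-treated cKO and 380.0, 418 and 388 CPM in LPS-treated CD18fl/fl BMDCs. Every cKO library was below every control library, and the spread within each genotype was smaller than the gap between them. The log2 fold change was -0.71 (SE 0.23, adjusted p = 0.431), and -0.72 (SE 0.14, adjusted p = 0.022) with the block. Oasl2 (ENSMUSG00000029561, chromosome 5, 115034997 to 115050295), an oligoadenylate synthetase with ubiquitin-like domains, had 86.8, 137 and 114 CPM in cKO and 151, 179 and 183 CPM in CD18fl/fl BMDCs, again without overlap. Oasl2 differed by -0.63 (SE 0.26, adjusted p = 0.503) and -0.65 (SE 0.15, adjusted p = 0.0392) with the block. For Phf11d, the levels were 216, 383 and 119 CPM in cKO and 153, 193 and 77.4 CPM in CD18fl/fl BMDCs. The genotypes overlapped, since replicate 3 was lowest in both, but the cKO library was higher in each pair (log2 ratios 0.50, 0.98 and 0.63). The log2 fold change of Phf11d was 0.73 (SE 0.50, adjusted p = 0.691) and 0.68 (SE 0.15, adjusted p = 0.037) with the block. Without the block, it was 0.22 without LPS-treated cKO replicate 2, 0.41 without CD18fl/fl replicate 3, and 1.04 without cKO replicate 3, and library size scaling with the block gave 0.43 (adjusted p = 0.0925).

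Oasl1 was at 129, 189 and 216 CPM in LPS-treated cKO and 287, 341 and 234 CPM in LPS-treated CD18fl/fl BMDCs, without overlap, with a log2 fold change of -0.71 (SE 0.29, adjusted p = 0.503) and an adjusted p of 0.0734 with the block. For Ddx60, also without overlap, it was -0.57 (SE 0.23, adjusted p = 0.499), and 0.0784 was the adjusted p with the block. For Ifit1, Rsad2 and Isg15 the genotypes overlapped after LPS. Ifit1 had 112, 159 and 241 CPM in cKO and 218, 259 and 279 CPM in CD18fl/fl BMDCs, lower in each pair (log2 fold change -0.58 (SE 0.34, adjusted p = 0.638), and 0.0638 as adjusted p with the block). Rsad2 had 486, 923 and 756 and 1122, 1450.0 and 867 CPM, with -0.69 (SE 0.34, adjusted p = 0.573), and 0.0692 with the block. Isg15 had 486, 688 and 631 and 500.2, 587 and 468 CPM, with 0.19 (SE 0.25, adjusted p = 0.857), and its highest library was one of cKO. This direction turned with library size scaling (-0.051) and with the length offset and block (-0.41), and in TPM the highest library was one of CD18fl/fl. Among treated libraries, replicate 1 of cKO was the lowest for Ifit1 and Rsad2, and it was low for other members as well. The median log2 ratio of cKO to CD18fl/fl over the 49 members was -0.30 in pair 1, 0.004 in pair 2 and -0.12 in pair 3, and 35 members had their lowest ratio in pair 1. In pair 1, 40 members were lower in cKO, against 24 in pair 2 and 30 in pair 3. With replicate 3 left out of both genotypes, 0 members and 4.22% of all genes were called by edgeR, 1 member was higher and 10 lower at an unadjusted p under 0.05, and the median was -0.22. Scaling to library size alone set the members' median to -0.47, next to -0.37 for all genes. With the block and this scaling, 0 members were called higher and 18 lower (4.74% and 16.5% of all genes). The length offset with the block left Phf11d higher and Lgals3bp lower, called Bst2 and Ifitm3 lower (5.35% of all genes higher, 2.23% lower), and gave Oasl2 an adjusted p of 0.0659. DESeq2 with the block called 1 member higher and 9 lower (11.5% and 5.65% of all genes).

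**Figure D4:**
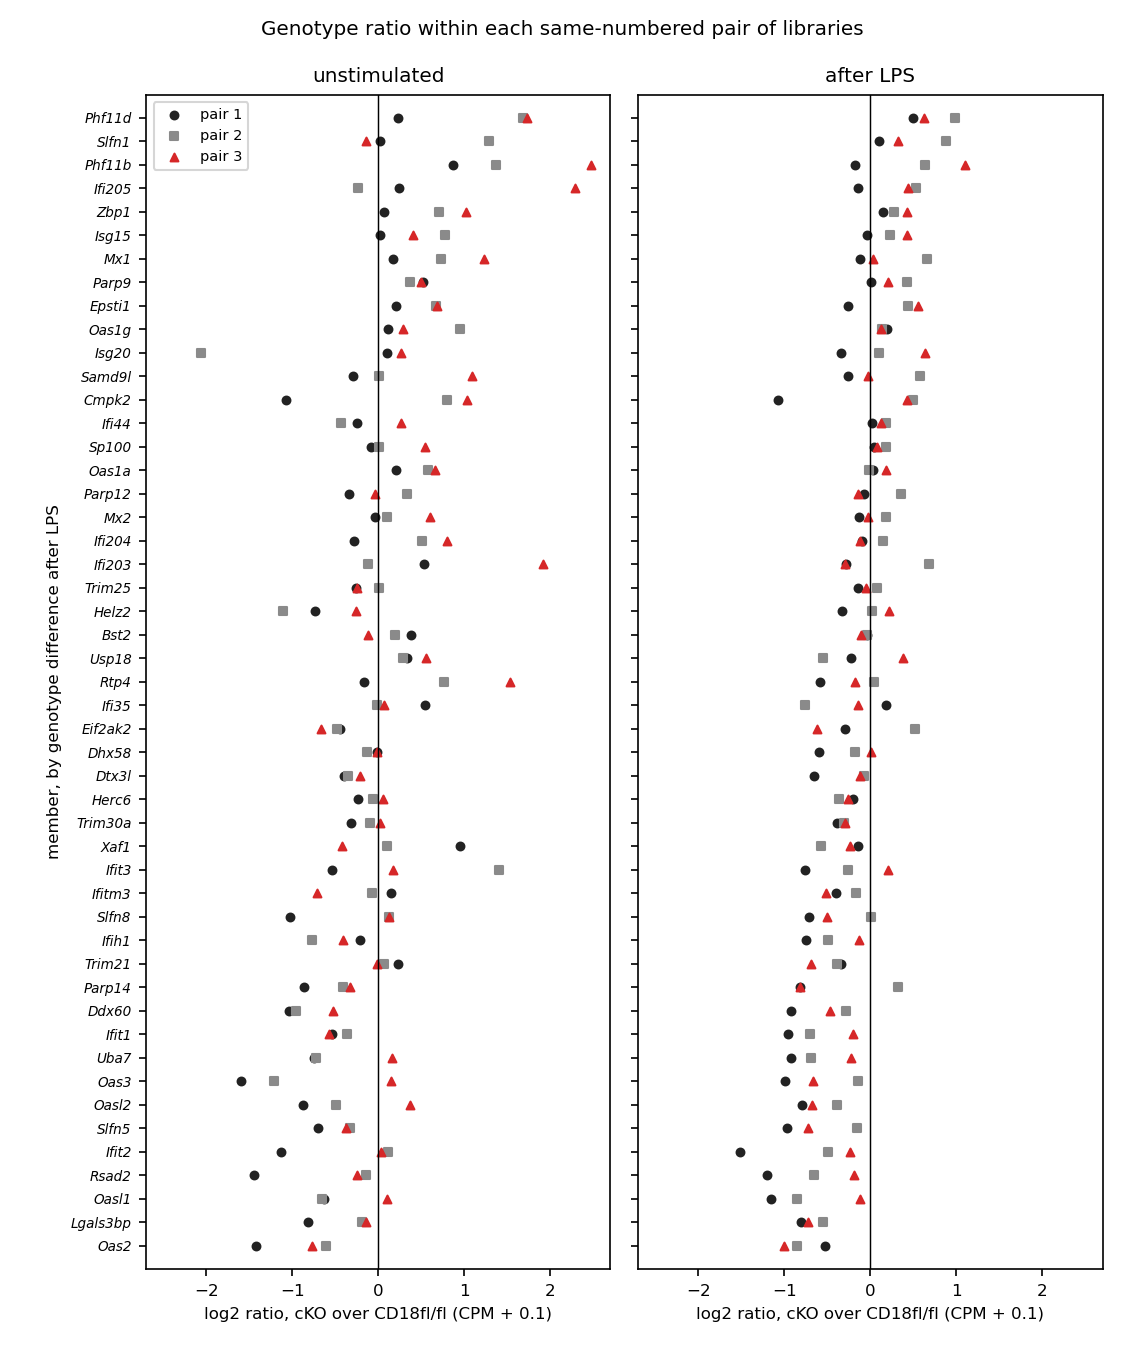
Log2 ratio of cKO to CD18fl/fl levels (CPM + 0.1) of each member within each same-numbered pair of libraries, for unstimulated (left) and LPS-treated BMDCs (right). After LPS, most ratios of pair 1 are below 0 (40 of 49), those of pair 2 are centred at 0.004, and Phf11d is above 0 and Lgals3bp below 0 in all 3 pairs.

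For Ifnb1 the LPS-treated genotypes overlapped, with a log2 fold change of 0.53 (SE 1.08, adjusted p = 0.911). Of 25 upstream genes tested, 0 were called between LPS-treated genotypes. With the block 0 were higher and 2 lower (Ifnar2 and Pias1), where 6.98% of all genes were called higher and 3.16% lower. Ifnar2, a chain of the interferon receptor, had 75.8, 118 and 92.4 CPM in cKO and 125, 155 and 159.9 CPM in CD18fl/fl BMDCs, without overlap. Its log2 fold change was -0.66 (SE 0.15, adjusted p = 0.0372) with the block.

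Whether the response to LPS differed between genotypes was tested as the interaction over all 12 libraries. The 2 responses share no library, but each is one side of the genotype differences given above. The interaction passed the threshold for 0 of 49 members and 0% of 13752 genes in edgeR, whether the block was used or not. Members at an unadjusted p under 0.05 numbered 0 without the block and 1 with it (Trim21), and DESeq2 called 0 members and 0.00488% of all genes. Trim21 changed by 1.79 in CD18fl/fl and 1.15 in cKO BMDCs, with an interaction of -0.58 (SE 0.29) and an unadjusted p of 0.071 without and 0.045 with the block. The interactions of the strongest responders were small against their errors, with 0.021 (SE 0.69) for Rsad2, -0.11 (SE 0.75) for Isg15 and -0.072 (SE 0.98) for Ifit1. They were largest by size for Helz2 at 0.79 (SE 0.76) and Phf11b at -0.77 (SE 1.08). At these errors, a change in the response by 1 log2 unit could not be detected for Ifit1 or Isg15, so calls made in one genotype alone are not shown to differ between the genotypes.

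Several members have close relatives whose reads can be shared. Over the 12 libraries, 67.9% of the reads of Ifi205, 82.6% of Oas1g, 83.6% of Oas1a, 84.3% of Ifit3, 92.0% of Ifi204 and 94.3% of Phf11d were unique to the gene, and 43 members had over 95%. Values of these genes, and of Oas1a and Oas1g in particular, are therefore less certain than those of the other members.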

How the data were processed

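RNA-seq of MHCII+ BMDCs gave 12 libraries, grouped by the genotype and treatment in their labels. The authors counted 59-base single reads per gene in CLC Genomics Workbench and deposited, for each library, total gene reads, unique gene reads and TPM. The deposited counts are raw, with no normalization, and the deposited TPM are the authors' values. Coordinates in the files and the methods are those of GRCm39, whereas the submitters' processing notes name GRCm38. Between 95.1% and 96.2% of the reads of a library were unique, and no libraries were copies of each other (lowest chi-squared per degree of freedom 46.6).

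Total gene reads were tested with edgeR 4.0.16 in R 4.3.3 (filterByExpr with a minimum count of 10, TMM, quasi-likelihood test, Benjamini-Hochberg adjustment over all genes tested, threshold 0.05), with the 6 libraries of each comparison and all 12 for the interaction. Standard errors are the size of the log2 fold change over the root of F. Pair ratios and figures use log2(CPM + 0.1). The replicate numbers in the labels were taken as pairs because deviations from group means correlated over 0.1 for each pair in each comparison (r between 0.261 and 0.743). Across numbers, the mean r of replicates 1 and 2 was between 0.202 and 0.357. That of replicate 3 with the others was between -0.545 and -0.42. Since the deviations of a gene in a group sum to 0, this sign is set by the positive same-numbered r of replicate 3.

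Alternatives were RLE size factors, library size scaling, other filters, unique gene reads, a gene length offset with the block, DESeq2 1.42.0, all 12 libraries in 1 fit, and each library left out. Replicates 1 and 2 alone, and the block combined with DESeq2, unique reads, RLE or library size scaling, were added after the values were seen, as were levels on other scales. The procedures were tested on simulated counts. The members, role groups and lists were chosen with earlier results of these data known. Named were a preset group of members, the 5 with the smallest adjusted p in each direction and comparison, those nearest 0, and at most 6 others. The motif was searched on both strands of the 250 bases upstream. Intron reads and proteins were not used here, and 1 gene of the list of upstream genes is not reported here.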

Additional observations from a re-analysis of the deposited data

How the results depend on the processing

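The rise after LPS kept its direction under every alternative for all single genes examined except Epsti1. The number of members called higher in CD18fl/fl BMDCs was 45 with replicates 1 and 2 alone and 46 with DESeq2 and the replicate block, and it ranged from 0 to 35 with 1 library left out. In cKO BMDCs it ranged from 0 to 32, and the pairing moved it from 31 to 40. Where these counts were 0, between 0 and 2 of all genes were called. Epsti1 reversed in CD18fl/fl BMDCs, to 0.44 with the block, 0.50 with the length offset and block, 0.11 with the block and library size scaling, 0.47 with the block and RLE or DESeq2, and 0.44 with the block and unique reads, and from -0.60 to 0.63 with 1 library left out. In cKO BMDCs these values were 0.10 with the block, 0.23 with the length offset, 0.11 with the block and RLE, unique reads or DESeq2, and from -0.91 to 0.036 with 1 library left out.

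Between unstimulated genotypes, the block gave 6 members higher and 1 lower, also with RLE or unique reads. DESeq2 with the block gave 8 and 1, the length offset with the block 3 and 1, replicates 1 and 2 alone 1 and 3, and library size scaling with the block 1 and 15. Bst2 reversed to -0.18 with library size scaling without and with the block, and to -0.45 with the length offset and block, and Epsti1 ranged from -0.091 to 1.15 with 1 library left out. Between LPS-treated genotypes, the block gave 1 higher and 2 lower, also with RLE or unique reads, DESeq2 with the block 1 and 9, the length offset with the block 1 and 3, and library size scaling with the block 0 and 18. Library size scaling reversed Isg15 (-0.051, and -0.072 with the block), Mx1 (-0.085, and -0.091 with the block), Zbp1 (-0.012) and Ifi205 (-0.0097), and the length offset with the block reversed Isg15 (-0.41). With 1 library left out, Mx1 ranged from -0.028 to 0.32, Phf11b from -0.16 to 0.78, Zbp1 from -0.10 to 0.47 and Ifi205 from -0.11 to 0.48. The cause of these changes was not tested. With 3 libraries a group and few reads before LPS, small differences of members such as Oas2 and Mx2 were not detectable.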
